A study of Rattus norvegicus with 6 samples.

Results

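The genes examined are those of the fibrillar collagens Col1a1, Col1a2, Col2a1, Col3a1, Col5a1, Col5a2, Col5a3 and Col11a1, 8 of the 14217 genes named on an Affymetrix rat genome array. They were followed through every probe set that the array annotation assigns to a single one of these symbols, which gave 16 of 20826 probe sets naming 1 gene. The arrays held 3 groups of 2 biological replicates, all from 3Y1, an embryonic fibroblast line of the rat. MUC1-CD tumors were 3Y1 cells stably transfected to express the cytoplasmic part of MUC1, a mucin of the cell membrane, and grown under the skin of the hindlimbs of female athymic mice. MUC1-CD culture was the same transfected line kept in a dish, and Vector culture was 3Y1 cells stably transfected with the empty vector and kept in a dish. The labels name neither the promoter of the transgene nor whether a transfected line is 1 clone, and no Vector tumors were analysed here, so tumor growth was compared within MUC1-CD cells only. Athymic mice lack mature T cells but keep vessels, fibroblasts and macrophages of their own, and the tumors were not separated from these cells before RNA was taken. The study set out to find genes that accompany transformation and tumor growth driven by MUC1-CD.

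Fibrillar collagens are made as procollagen chains that fold together into a helix in the endoplasmic reticulum, leave the cell through enlarged transport carriers, and lose their end propeptides before they pack into banded fibrils. Types I and III form most fibrils of skin, vessels and loose connective tissue, type V starts fibrils and limits their width, and types II and XI do the same work in cartilage. Cultured fibroblasts are a standard source of types I, III and V, and many transformed fibroblasts make less collagen I than their parents.

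Signals are MAS5 values, a linear intensity that the authors deposited after bringing each array to the same mean. Changes are differences of log2(signal + 16) from 1 limma fit over all 6 arrays, with its standard error (SE), and limma p values were adjusted by Benjamini-Hochberg over the 18625 probe sets that passed a filter on mean signal (61.6). A change was called at an adjusted p under 0.05. Of the 16 collagen probe sets, 12 passed the filter, covering 7 of the 8 genes, and Col2a1 was left untested. The replicates of MUC1-CD tumors, MUC1-CD culture and Vector culture correlated at 0.987, 0.991 and 0.956 over the probe sets kept, on the log2 scale. The labelled cell type carried its markers: of the 11 fibroblast genes listed, all but Fap were above the filter on every array. Fap, which is also in the list of stromal markers below, had 588 and 513 in MUC1-CD tumors, 32.5 and 59.3 in MUC1-CD culture, and 30.4 and 28.7 in Vector culture. The summed signals of the list were 80824.2 and 85607.7 in MUC1-CD tumors, 78140.5 and 79475.2 in MUC1-CD culture, and 97315.2 and 90348.2 in Vector culture. The Vector arrays stood apart. The 3' signal of the Gapdh control was 1.11 to 1.18 times its 5' signal on the 4 MUC1-CD arrays but 11.5 and 17.8 times on the Vector arrays, a ratio that rises when RNA is broken or copied short. RNA quality and the Vector group therefore cannot be told apart, and this applies to every comparison with Vector culture below. Mouse RNA can bind rat probes, so rat and mouse collagen RNA in the tumors cannot be told apart. In whole cultures and tumors, more cells of a type and more RNA per cell cannot be told apart either.

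The collagen genes moved together in most cases (plot of signals by gene). In MUC1-CD culture against Vector culture, 6 of the 7 tested genes fell and 1, Col5a1, whose probe sets disagreed, rose, while 24.9% of all 10037 genes fell and 21.2% rose. Col11a1 passed the filter through Vector culture alone, so it had to be lower in MUC1-CD culture, and of the other 6 genes 5 fell. The median change of the 7 genes was -1.39, and -1.10 without Col11a1, against -0.04 over all genes. By probe set, 11 fell and 1 rose out of 12, beside 20.7% and 25.0% of all probe sets. The 11 include the tested probe sets of Col11a1. In MUC1-CD tumors against MUC1-CD culture, 4 of the 7 genes rose, none fell and 3 were not called, while 9.82% of all genes rose and 8.97% fell, and the median was 0.66 against 0.03 over all genes. By probe set, 7 of 12 rose and none fell, beside 8.54% and 7.31% of all probe sets. After dividing each array by its median, 3 were still called, all higher, and an uncalled Col1a2 probe set (1387854_at) turned to -0.086. Col5a3 is in both counts of rises. Its mean over all arrays reached the filter only with the tumor arrays, so the filter favoured its rise. In MUC1-CD tumors against Vector culture, 2 genes rose, 3 fell and 2 were not called, while 24.8% and 26.6% of all genes rose and fell, and the median was -0.15 against -0.02. By probe set, 2 rose and 6 fell, beside 29.1% and 22.4% of all probe sets. Col11a1 is among the falls in both counts, and through the filter it had to be lower here too. Col5a3 is among the rises in both counts, favoured by the filter as above. After dividing each array by its median, 2 rose and 10 fell, while the higher share of all calls was 25.1%, against 56.5% as deposited. The comparisons share arrays, so the direction of one is not independent of another.

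**Figure D1:**
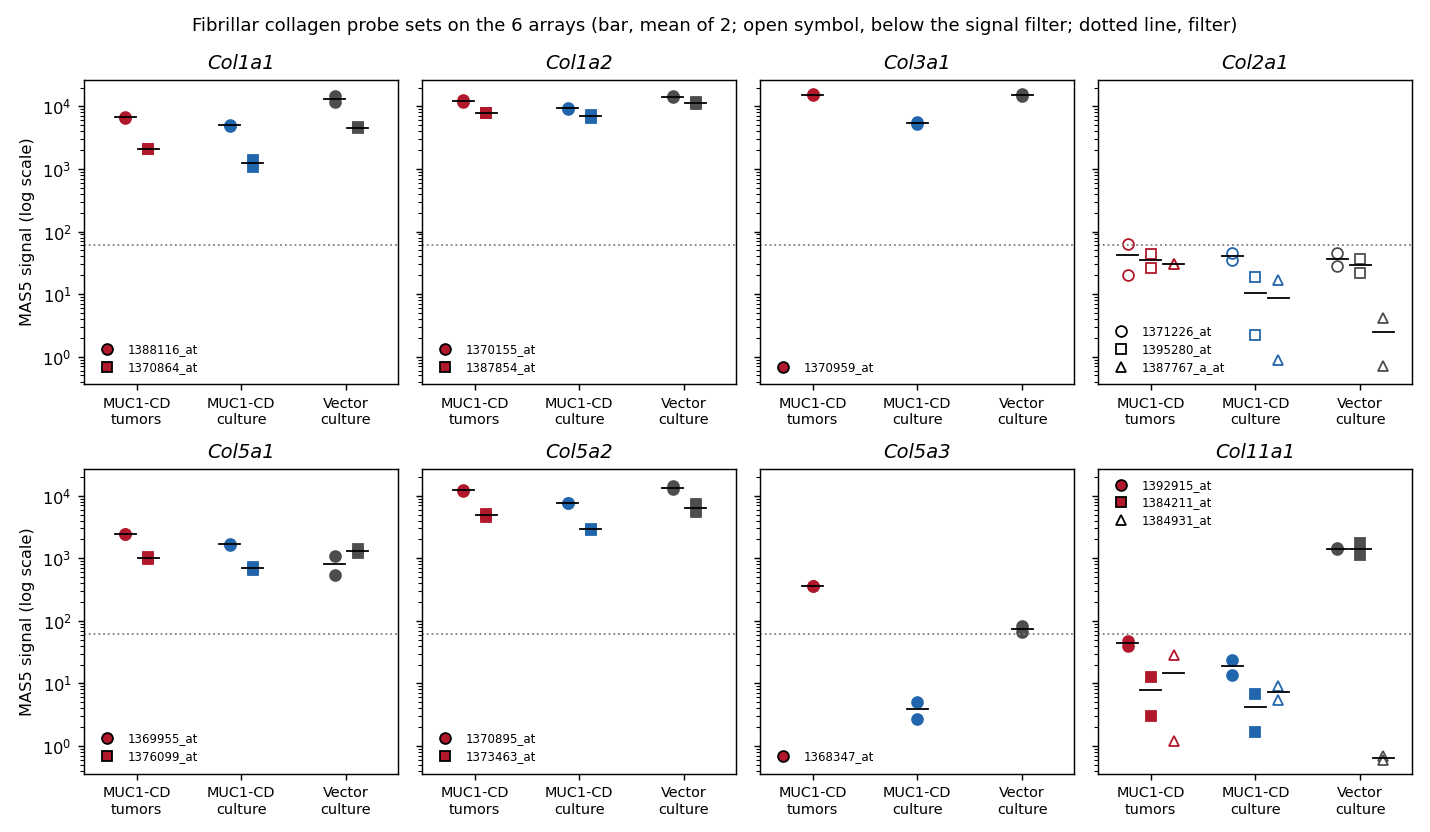
MAS5 signal (log scale) of the 16 probe sets of 8 fibrillar collagen genes on the 6 arrays, with MUC1-CD tumors, MUC1-CD culture and Vector culture from left to right; each symbol is 1 array, each bar the mean of 2, and open symbols are probe sets below the filter (dotted line at 61.6). Col11a1 1392915_at reads 1413 and 1453.9 in Vector culture alone, Col5a3 reads 355.9 and 365.7 in MUC1-CD tumors but 5 and 2.7 in MUC1-CD culture, and all Col2a1 probe sets lie low in every group.

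**Figure D2:**
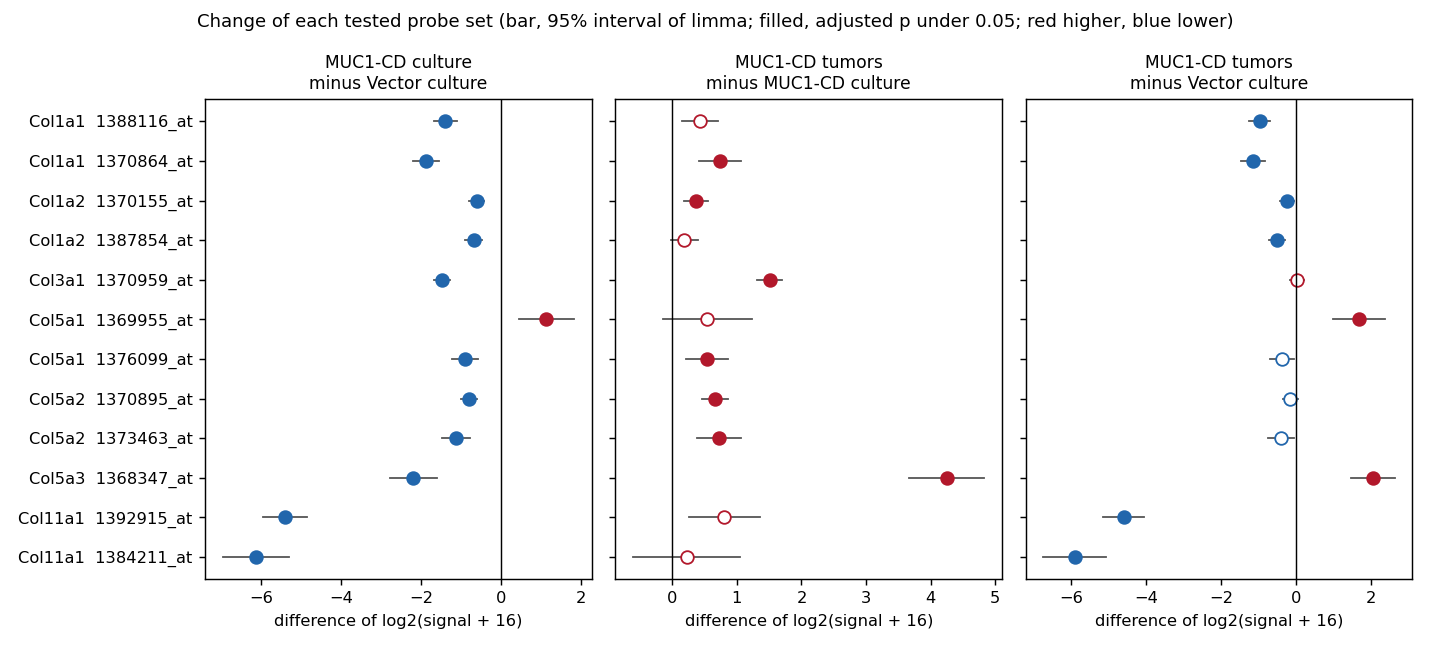
Change of the 12 tested probe sets in each comparison as a difference of log2(signal + 16), with the 95% interval of limma; filled symbols have an adjusted p under 0.05, red is higher and blue is lower. Of these, 11 lie below 0 in MUC1-CD culture against Vector culture, and all 12 lie above 0 in MUC1-CD tumors against MUC1-CD culture, 7 of them called (Col1a2 1387854_at turned to -0.086 when arrays were divided by their median). Those of Col11a1 passed the filter through Vector culture alone, so they had to lie below 0 against it. Col5a3 reached the filter on mean signal only with its tumor arrays, which favoured its place above 0 in tumors.

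Promoters of members are printed from RefSeq (GRCr8 assembly), which had a window for 5 of the 8 genes, from 250 bases before to 50 bases after the annotated gene start. The windows of Col1a2 and Col5a2 stand for the pair of members with the most alike pattern over the arrays, Col11a1 for the largest fall and Col5a3 for the largest rise in tumors. They are chr4:33518307-33518606 on the plus strand for Col1a2, chr9:55090102-55090401 on the minus strand for Col5a2, chr2:204508886-204509185 on the plus strand for Col11a1 and chr8:27625899-27626198 on the minus strand for Col5a3. Each is written 5' to 3' in the direction of its gene, and capitals mark matches on either strand to the letters of the CCAAT box (CCAAT), the letters of the GC box (GGGCGG) and the core of the TATA box (TATAA). A match on the minus strand reads as its reverse complement.
Col1a2: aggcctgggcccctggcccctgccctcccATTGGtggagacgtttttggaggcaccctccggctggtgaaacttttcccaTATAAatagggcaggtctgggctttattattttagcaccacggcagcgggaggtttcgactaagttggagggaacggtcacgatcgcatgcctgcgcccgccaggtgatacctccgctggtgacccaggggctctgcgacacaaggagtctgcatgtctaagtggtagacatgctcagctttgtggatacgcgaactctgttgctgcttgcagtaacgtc
Col5a2: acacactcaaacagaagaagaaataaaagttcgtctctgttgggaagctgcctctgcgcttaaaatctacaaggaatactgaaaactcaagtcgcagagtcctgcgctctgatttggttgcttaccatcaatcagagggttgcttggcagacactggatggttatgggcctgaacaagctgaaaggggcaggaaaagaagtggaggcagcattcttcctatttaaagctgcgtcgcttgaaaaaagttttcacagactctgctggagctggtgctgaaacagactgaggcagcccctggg
Col11a1: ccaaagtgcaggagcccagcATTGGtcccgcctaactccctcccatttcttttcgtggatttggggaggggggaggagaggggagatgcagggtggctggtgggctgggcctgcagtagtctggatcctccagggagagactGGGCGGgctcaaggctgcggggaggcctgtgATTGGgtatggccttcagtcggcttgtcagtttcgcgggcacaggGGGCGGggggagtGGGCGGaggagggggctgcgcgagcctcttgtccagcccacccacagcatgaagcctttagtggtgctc
Col5a3: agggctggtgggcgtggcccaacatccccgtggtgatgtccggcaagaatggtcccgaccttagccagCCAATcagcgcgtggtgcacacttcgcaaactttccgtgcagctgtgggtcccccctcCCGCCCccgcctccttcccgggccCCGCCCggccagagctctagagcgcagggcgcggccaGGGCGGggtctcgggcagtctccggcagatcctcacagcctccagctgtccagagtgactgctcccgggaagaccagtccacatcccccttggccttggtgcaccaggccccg
Col1a2 had 1 CCAAT box on the minus strand, 221 to 217 bases before the annotated start, and 1 TATA box, 170 to 166 bases before it. From that start on, the Col1a2 window reads atg, the letters of a start codon. These distances may therefore not count from the start of transcription. Col5a2 had none of these letters. Col11a1 had 2 CCAAT boxes on the minus strand and 3 GC boxes, and Col5a3 had 1 CCAAT box and 3 GC boxes. The fifth window, that of Col5a1, had 1 GC box. No matches overlapped. Over all 27457 RefSeq promoters of this length, 37.7% held the CCAAT letters, 34.9% those of the GC box and 26.1% those of the TATA box, so each motif is common, and a match is a description of the sequence only.

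Col1a1 and Col1a2 encode the chains of type I collagen, the main fibril of skin, tendon and bone. Both were lower in MUC1-CD culture than in Vector culture, Col1a1 at 37.8% and Col1a2 at 65.6% of the Vector mean. The probe set that represents Col1a1 (1388116_at) had signals of 6869.7 and 6504.9 in MUC1-CD tumors, 5059.5 and 4872.8 in MUC1-CD culture, and 14620.9 and 11678.2 in Vector culture. Vector arrays were the highest, culture arrays of MUC1-CD cells the lowest and tumors between them, with no overlap between any groups. Col1a1 fell by 1.39 (SE 0.12, limma adjusted p = 0.000255) in MUC1-CD culture against Vector culture and fell by 0.97 (SE 0.12, adjusted p = 0.000809) in MUC1-CD tumors against Vector culture. The difference of tumors over MUC1-CD culture was 0.43 (95% interval 0.14 to 0.71) and was not called (adjusted p = 0.0555). A second Col1a1 probe set, 1370864_at, had 2065.3 and 2070 in tumors, 1383.1 and 1087.9 in MUC1-CD culture, and 4606.9 and 4561.4 in Vector culture. It gave the same order of groups, with a change of -1.89 in MUC1-CD culture against Vector culture (SE 0.14, adjusted p = 0.000141) and a called rise of 0.75 in tumors against MUC1-CD culture (SE 0.14, adjusted p = 0.0146).

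For Col1a2, 1370155_at had 12599.2 and 11628.9 in MUC1-CD tumors, 9199.1 and 9587.3 in MUC1-CD culture, and 14039.2 and 14609.5 in Vector culture. The groups kept the order seen for Col1a1 and did not overlap, but lay closer together. Col1a2 fell by 0.61 in MUC1-CD culture against Vector culture (SE 0.08, adjusted p = 0.00116), rose by 0.37 in tumors against MUC1-CD culture (SE 0.08, adjusted p = 0.0238) and fell by 0.24 in tumors against Vector culture (SE 0.08, adjusted p = 0.0367). The last call was lost under most alternatives, with adjusted p = 0.525 after quantile normalization and adjusted p between 0.0772 and 0.214 without 1 array of either MUC1-CD group. The other probe set, 1387854_at, had 7960.9 and 7870.2 in tumors, 6638.4 and 7301.9 in MUC1-CD culture, and 10815 and 11661.5 in Vector culture. It fell by 0.69 in MUC1-CD culture against Vector culture (adjusted p = 0.00113) and fell by 0.50 in tumors against Vector culture (adjusted p = 0.00334), and its difference of 0.18 in tumors over MUC1-CD culture was not called (95% interval -0.02 to 0.39, adjusted p = 0.202). The log2 ratio of Col1a2 to Col1a1 within an array, which compares changes and not levels, was 0.87 and 0.84 in tumors, 0.86 and 0.97 in MUC1-CD culture, and -0.06 and 0.32 in Vector culture. It was higher on all 4 MUC1-CD arrays than on either Vector array, so the type I chains did not change in step between Vector and MUC1-CD cells. With 2 arrays against 2, the smallest 2-sided p of an exact permutation test is 0.333, so the ratios are given without a test.

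Col3a1 encodes the chain of type III collagen, which forms thin fibrils with type I in skin, vessels and healing wounds. Its signals were 14933 and 16017.6 in MUC1-CD tumors, 5549.3 and 5286.6 in MUC1-CD culture, and 14572.7 and 15624.4 in Vector culture. The MUC1-CD culture arrays were low, and the tumor and Vector arrays were high and overlapped. Col3a1 fell by 1.48 in MUC1-CD culture against Vector culture (SE 0.08, adjusted p = 5.83e-05), to 35.9% of the Vector mean, and rose by 1.51 in tumors against MUC1-CD culture (SE 0.08, adjusted p = 0.000179). Between tumors and Vector culture the difference was 0.04, with a 95% interval of -0.16 to 0.23 (adjusted p = 0.735). Dividing each array by its median put this difference at -0.56 (adjusted p = 0.00246), so its size rests on how the arrays are scaled. The rise in tumors exceeded that of Col1a1 on the same arrays: the log2 ratio of Col3a1 to Col1a1 was 1.12 and 1.30 in tumors, 0.13 and 0.12 in MUC1-CD culture, and -0.00 and 0.42 in Vector culture. The tumor ratios were above all 4 ratios from cultures.

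Type V collagen is a minor partner buried inside type I fibrils. Its Col5a2 gene lies next to Col3a1 on chromosome 9, with 0 annotated genes between them in GRCr8. The probe set 1370895_at of Col5a2 had 11748.1 and 12536.8 in MUC1-CD tumors, 7710.5 and 7670.1 in MUC1-CD culture, and 12784.1 and 14252.1 in Vector culture. As for Col1a2, the MUC1-CD culture arrays were lowest and the Vector arrays highest, without overlap. Col5a2 fell by 0.81 in MUC1-CD culture against Vector culture (SE 0.08, adjusted p = 0.000529) and rose by 0.66 in tumors against MUC1-CD culture (SE 0.08, adjusted p = 0.00411). The difference of tumors over Vector culture, -0.15, was not called (95% interval -0.36 to 0.05, adjusted p = 0.171), and it was 0.024 after quantile normalization. A second probe set, 1373463_at, had 5096.8 and 4586.6 in tumors, 2993.1 and 2854.2 in MUC1-CD culture, and 5581.7 and 7331.7 in Vector culture. It gave the same calls, with a change of -1.13 in MUC1-CD culture against Vector culture (adjusted p = 0.00118) and a rise of 0.72 in tumors against MUC1-CD culture (adjusted p = 0.0195). Among members, Col1a2 and Col5a2 had the most alike pattern over the 6 arrays (root mean square distance of centred log2 values 0.14). Col5a2 with Col3a1, Col5a2 with Col1a1, and Col1a1 with Col1a2 came next, all at 0.37. The log2 ratio of Col5a2 to its neighbour Col3a1 was -0.35 on both tumor arrays, 0.47 and 0.54 in MUC1-CD culture, and -0.19 and -0.13 in Vector culture. The ratio was highest on the MUC1-CD culture arrays, so the neighbouring genes changed unequally.

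Col5a1, the chain found in nearly all type V molecules, gave opposite answers from its probe sets (plot of Col5a1 and control probe sets). Probe set 1369955_at had 2456.4 and 2437 in MUC1-CD tumors, 1653.2 and 1698.1 in MUC1-CD culture, and 1068.8 and 532.6 in Vector culture. Here the Vector arrays were the lowest and differed by a factor larger than any other replicate pair of the gene. The probe set rose by 1.13 in MUC1-CD culture against Vector culture (SE 0.29, adjusted p = 0.0186) and by 1.67 in tumors against Vector culture (SE 0.29, adjusted p = 0.00340). Probe set 1376099_at had 1043.8 and 972.9 in tumors, 662.2 and 719.9 in MUC1-CD culture, and 1227.9 and 1404.5 in Vector culture. Here the Vector arrays were the highest and the MUC1-CD culture arrays the lowest, as for Col1a1, Col1a2 and Col5a2. It fell by 0.91 in MUC1-CD culture against Vector culture (SE 0.14, adjusted p = 0.00223) and its difference of -0.38 between tumors and Vector culture was not called (adjusted p = 0.0559). The direction of Col5a1 between MUC1-CD and Vector cells therefore depends on the probe set. With the median of its probe sets the change in MUC1-CD culture was 0.11 (adjusted p = 0.598), and the rise of 1369955_at was not called without MUC1-CD culture replicate 1 (adjusted p = 0.0888) or 2 (adjusted p = 0.100). Both probe sets were higher in tumors than in MUC1-CD culture, by 0.54 each, called for 1376099_at (adjusted p = 0.0433) and not for 1369955_at (95% interval -0.15 to 1.23, adjusted p = 0.255). On the same arrays the 3' to 5' ratio of the beta-actin control was 3.25 and 2.97 in tumors, 3.37 and 3.28 in MUC1-CD culture, and 4.15 and 41.7 in Vector culture. Vector replicate 2, with the highest ratio, had the lowest signal of 1369955_at. Without Vector replicate 1 the rise of 1369955_at in MUC1-CD culture was 1.62 (adjusted p = 1.39e-07), and without Vector replicate 2 it was 0.64 (adjusted p = 0.000128). In tumors against Vector culture these fits gave 2.17 and 1.18, both called. The part of RNA quality in this result was not tested, and the place of each probe set along the transcript is not used here.

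**Figure D3:**
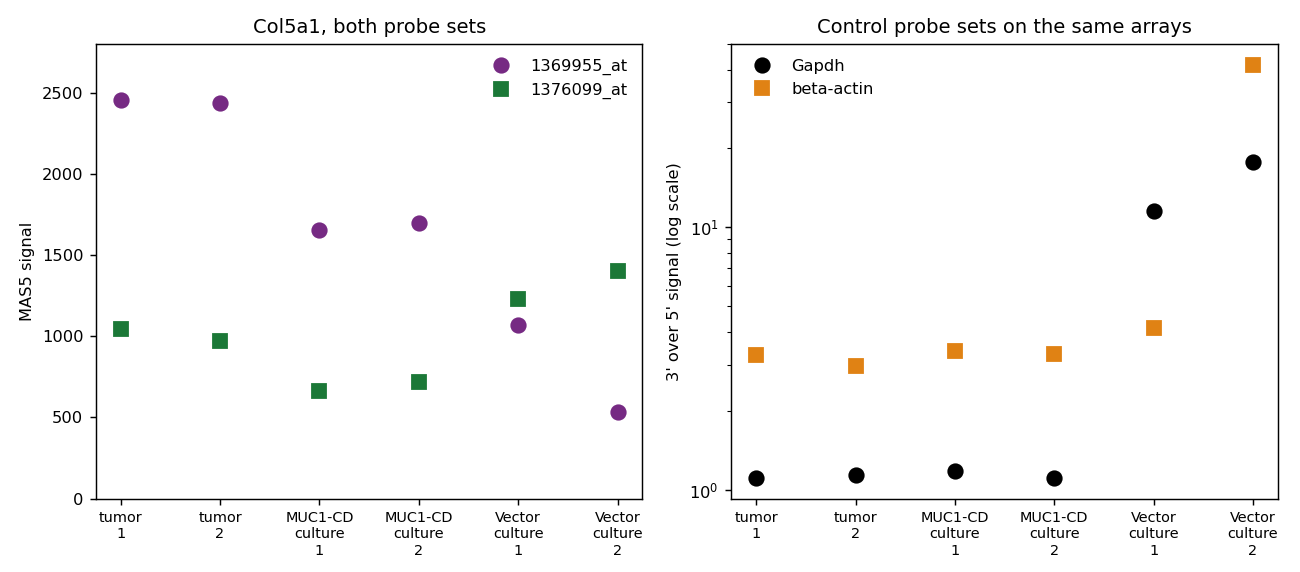
Left, MAS5 signal of both Col5a1 probe sets on each array; right, the ratio of 3' to 5' signal (log scale) of the Gapdh and beta-actin control probe sets on the same arrays, with MUC1-CD tumors, MUC1-CD culture and Vector culture from left to right. Probe set 1369955_at is lowest and 1376099_at highest in Vector culture, where the Gapdh ratios are 11.5 and 17.8 against 1.11 to 1.18 on the other arrays.

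Col5a3 encodes a type V chain of restricted distribution, known from developing muscle, fat and pancreatic islets. Its only probe set, 1368347_at, had 355.9 and 365.7 in MUC1-CD tumors, 5 and 2.7 in MUC1-CD culture, and 82.6 and 67 in Vector culture. The groups did not overlap, and the MUC1-CD culture arrays were far below the filter. At the lowest, 5.53% of all probe sets on the same array lay below it. Col5a3 fell by 2.19 in MUC1-CD culture against Vector culture (SE 0.25, adjusted p = 0.000696), rose by 4.25 in tumors against MUC1-CD culture (SE 0.25, adjusted p = 0.000223) and stood 2.06 above Vector culture in tumors (SE 0.25, adjusted p = 0.000705). These sizes depend on the constant of 16, since the MUC1-CD culture signals lie below it. Of the 7 tested members it had the largest rise in tumors and, with the opposing probe sets of Col5a1 aside, was the only one called higher in tumors than in Vector culture. Its mean over all arrays reached the filter only with the tumor arrays. The filter therefore favoured both rises, and they support nothing by themselves.

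Col11a1, a chain of type XI collagen that takes the place of type V in cartilage and is also made by some activated fibroblasts, fell furthest. Probe set 1392915_at had 48.1 and 39.9 in MUC1-CD tumors, 13.6 and 23.7 in MUC1-CD culture, and 1413 and 1453.9 in Vector culture. Both Vector arrays were high and all 4 MUC1-CD arrays were under the filter of 61.6. Col11a1 fell by 5.40 in MUC1-CD culture against Vector culture (SE 0.23, adjusted p = 2.74e-05) and fell by 4.60 in tumors against Vector culture (SE 0.23, adjusted p = 3.19e-05), to 1.30% and 3.07% of the Vector mean. Its difference of 0.80 in tumors over MUC1-CD culture was not called (95% interval 0.26 to 1.35, adjusted p = 0.0598), though the arrays did not overlap. Another probe set, 1384211_at, had 12.8 and 3 in tumors, 6.7 and 1.7 in MUC1-CD culture, and 1109.7 and 1743.8 in Vector culture. It fell by 6.13 in MUC1-CD culture against Vector culture (adjusted p = 6.6e-05) and fell by 5.91 in tumors against Vector culture (adjusted p = 5.34e-05), and tumors overlapped MUC1-CD culture. The sizes depend on the constant of 16, since several MUC1-CD signals lie below it. With a constant of 1 and of 64, the changes of 1392915_at were -6.24 and -4.18 in MUC1-CD culture and -5.00 and -3.79 in tumors, and those of 1384211_at were -8.25 and -4.42 in MUC1-CD culture and -7.55 and -4.34 in tumors, all against Vector culture and all called. The third, 1384931_at, lay below the filter, with 28.7 and 1.2 in tumors, 5.4 and 9.1 in MUC1-CD culture, and 0.7 and 0.6 in Vector culture, and shows none of the difference seen by the others.

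Col2a1, the chain of type II collagen of cartilage, was low throughout. Its 3 probe sets ran from 20.5 to 63.8 in MUC1-CD tumors, 0.9 to 45.4 in MUC1-CD culture and 0.7 to 45.5 in Vector culture, with means over the arrays below the filter, and none was tested. The cartilage markers Acan, Comp, Col9a1, Col10a1 and Cnmd were below the filter on all 6 arrays. Hapln1, a link protein of cartilage matrix, passed the filter on its mean and, like Col11a1, had its highest mean in Vector culture. It had 77.5 and 55 in MUC1-CD tumors, 229.3 and 217.4 in MUC1-CD culture, and 378.1 and 274.1 in Vector culture. Unlike that of Col11a1, its change of -0.50 in MUC1-CD culture against Vector culture was not called (limma adjusted p = 0.132).

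The signals of other cell types changed with the tumors. Of 10 tested macrophage genes 8 rose in tumors against MUC1-CD culture, beside 9.82% of all genes. Of the 10, 7 (Aif1, Cd68, C1qa, C1qb, C1qc, Itgb2 and Coro1a) passed the filter through tumors alone and so had to be higher there. The same holds for 3 of 4 tested endothelial genes, 4 of 8 stromal genes and 5 of 8 muscle genes below, and these counts support nothing by themselves. Of the remaining genes, 1 of 3 for macrophages, 0 of 1 for endothelium, 1 of 4 for stroma and 3 of 3 for muscle were called higher. The macrophage list of 13 summed to 4619.6 and 4510 in tumors, 478.4 and 453.3 in MUC1-CD culture, and 511.1 and 757.9 in Vector culture, with Tyrobp below the filter on all arrays. For endothelium, 3 of 4 tested genes rose, with sums of 2730.9 and 2617.5 in tumors, 459.4 and 527.8 in MUC1-CD culture, and 512.4 and 481.5 in Vector culture, while Pecam1, Kdr and Vwf were below the filter on all arrays. Of the 8 tested genes of pericytes and activated stroma 5 rose, and sums were 22983.1 and 23832.1 in tumors, 2042.6 and 1951.5 in MUC1-CD culture, and 909.8 and 661.6 in Vector culture. Most of the tumor sum was periostin, and Rgs5 and Tagln were below the filter on all arrays. All 8 tested genes of skeletal muscle, which lies beneath the injection site, rose in tumors against MUC1-CD culture, with sums of 13212.3 and 12429.1 in tumors, 3105.5 and 3044.8 in MUC1-CD culture, and 10225.6 and 10692 in Vector culture, and with Pygm below the filter on all arrays. The sum of each of these lists moved in the same direction as Col3a1, Col5a2 and Col5a3 between MUC1-CD culture and tumors. Among the tested genes, Egfl7, Cspg4 and Cd163 went the other way, none of them called. Their means were 177, 622 and 112 in tumors, against 274, 893 and 130 in MUC1-CD culture. The part of these cell types in the collagen rises was not tested. The stromal and muscle sums also differed between MUC1-CD culture and Vector culture, in opposite directions, and their part in the collagen falls was not tested.

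Genes that make, assemble, bind or cut collagen were read from lists chosen with earlier results of these data known, and are described by counts (plot of partner genes). Over all genes, 21.2% rose and 24.9% fell in MUC1-CD culture against Vector culture, and 9.82% rose and 8.97% fell in tumors against MUC1-CD culture. Each list's counts stand beside these shares, with no test between them. Of the other fibrillar chains only Col27a1, of 3 listed, passed the filter. It had 331 ± 50.5 in MUC1-CD tumors, 119 ± 35.6 in MUC1-CD culture and 97.2 ± 24.0 in Vector culture (SD, n = 2), and rose by 1.38 in tumors against MUC1-CD culture (SE 0.27, limma adjusted p = 0.0190). Among fibril-associated collagens, which coat fibrils, 3 of 10 listed were tested. Col12a1, a collagen of stretched connective tissue, followed the members: 288 ± 10.7 in tumors, 119 ± 10.8 in MUC1-CD culture and 639 ± 106 in Vector culture, a change of -2.28 in MUC1-CD culture against Vector culture (SE 0.18, adjusted p = 0.000203) and of 1.18 in tumors against MUC1-CD culture (SE 0.18, adjusted p = 0.00825). The remaining 2, Col9a2 and Col16a1, were not called in either comparison.

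Of 17 tested genes of procollagen modification and folding, 4 fell and 1 rose in MUC1-CD culture against Vector culture (median -0.14), and 1 rose and 3 fell in tumors against MUC1-CD culture (median 0.01). P4ha3, a subunit of the prolyl hydroxylase that stabilises the helix, had 1226 ± 9.19 in tumors, 1393 ± 38.3 in MUC1-CD culture and 3831 ± 382 in Vector culture, a change of -1.45 in MUC1-CD culture against Vector culture (adjusted p = 0.000219). P3h3 fell by 1.58 in MUC1-CD culture (adjusted p = 0.000510) and rose by 1.52 in tumors against MUC1-CD culture (adjusted p = 0.00195). Its partner P3h4 fell by 1.11 in MUC1-CD culture (adjusted p = 0.00143). Plod2, which hydroxylates lysines used in crosslinks, rose by 1.18 in MUC1-CD culture (adjusted p = 0.00313). In tumors against MUC1-CD culture, where Col3a1 and Col5a2 rose, the prolyl hydroxylase subunit P4ha1 fell by 0.72 (adjusted p = 0.00702) and P4ha2 fell by 0.55 (adjusted p = 0.0243). The chaperone Fkbp14 fell by 0.54 (adjusted p = 0.0270).

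Export genes were mixed. Of 8 tested, 3 rose and 3 fell in MUC1-CD culture against Vector culture (median -0.10), and 1 rose and 1 fell in tumors against MUC1-CD culture (median -0.23). Mia3 (TANGO1), the receptor that loads procollagen into carriers, had 3183 ± 33.7 in tumors, 4542 ± 7.14 in MUC1-CD culture and 3440 ± 285 in Vector culture (SD, n = 2), a change of 0.40 in MUC1-CD culture against Vector culture (adjusted p = 0.0168) and of -0.51 in tumors against MUC1-CD culture (adjusted p = 0.0187). Its relative Mia2 fell by 0.97 in MUC1-CD culture against Vector culture (adjusted p = 0.00232), and the coat protein Sec31a fell by 1.26 (adjusted p = 0.0122). Trappc2, needed for procollagen to leave the endoplasmic reticulum, rose by 1.40 there (adjusted p = 0.000668). Both propeptide genes tested of 7 listed fell in MUC1-CD culture against Vector culture. Bmp1, the C-proteinase, changed by -0.62 (adjusted p = 0.0104) and its enhancer Pcolce by -1.33 (adjusted p = 0.000613). Bmp1 rose by 0.88 in tumors against MUC1-CD culture (adjusted p = 0.00810), where Pcolce was not called (adjusted p = 0.136). In crosslinking, 4 genes were tested. In MUC1-CD culture against Vector culture 1 rose and 1 fell, and in tumors against MUC1-CD culture none rose and 1 fell. Lox, the lysyl oxidase, had 4068 ± 13.4 in tumors, 6414 ± 270 in MUC1-CD culture and 8668 ± 288 in Vector culture, a change of -0.43 in MUC1-CD culture against Vector culture (adjusted p = 0.00639) and of -0.65 in tumors against MUC1-CD culture (adjusted p = 0.00411). Loxl2 rose by 2.67 in MUC1-CD culture against Vector culture (SE 0.17, adjusted p = 8.53e-05).

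Of 12 tested genes for proteins that bind fibrils and set their assembly, 9 rose and none fell in tumors against MUC1-CD culture, beside 9.82% of all genes that rose. Dcn, Lum and Dpt passed the filter through tumors alone and so had to be higher there. Of the other 9 genes 6 rose, among them Fmod, which reached the filter on mean signal only with the tumor arrays. Postn, periostin, had 18963 ± 852 in tumors, 246 ± 43.0 in MUC1-CD culture and 139 ± 2.62 in Vector culture (SD, n = 2). Dcn, decorin, had 754 ± 64.1 in tumors, 39.9 ± 0.919 in MUC1-CD culture and 19.9 ± 5.30 in Vector culture, a rise of 3.78 in tumors against MUC1-CD culture (SE 0.23, adjusted p = 0.000252). The small proteoglycans Aspn and Ogn were, like Col11a1, much lower in MUC1-CD culture than in Vector culture. Aspn had 1752 ± 18.2 in tumors, 93.2 ± 9.48 in MUC1-CD culture and 4820 ± 1767 in Vector culture, and fell by 5.42 in MUC1-CD culture against Vector culture (SE 0.24, adjusted p = 3.04e-05). Ogn had 1385 ± 20.7 in tumors, 175 ± 8.56 in MUC1-CD culture and 5954 ± 599 in Vector culture, and fell by 4.96 (SE 0.13, adjusted p = 6.19e-06). Both rose in tumors against MUC1-CD culture, where Col11a1 was not called: Aspn by 4.02 (adjusted p = 0.000260) and Ogn by 2.87 (adjusted p = 0.000125). Sparc, a collagen-binding protein of the matrix, fell by 0.98 in MUC1-CD culture against Vector culture (adjusted p = 0.000332). Fbln1 rose by 1.30 there (adjusted p = 0.00593), and Postn by 0.75 (adjusted p = 0.00805). In that comparison 2 of the 12 genes rose and 4 fell (median -0.03). Dcn, Lum and Postn are also in the list of stromal markers above.

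Of 5 tested collagenases and gelatinases, 2 rose and 1 fell in MUC1-CD culture against Vector culture, and 3 rose and 1 fell in tumors against MUC1-CD culture. Mmp13, which cuts fibrillar collagen in rodents, had 13377 ± 1032 in tumors, 18636 ± 513 in MUC1-CD culture and 5603 ± 564 in Vector culture (SD, n = 2). It rose by 1.73 in MUC1-CD culture against Vector culture (SE 0.10, adjusted p = 6.68e-05), the comparison in which the chains fell, and fell by 0.48 in tumors against MUC1-CD culture (adjusted p = 0.0219). Mmp2, a gelatinase, had 2216 ± 110 in tumors, 25.5 ± 7.21 in MUC1-CD culture and 86.7 ± 0.283 in Vector culture. Mmp14, the membrane collagenase that activates Mmp2, and Ctsk, a collagen-cutting cathepsin, rose in tumors against MUC1-CD culture by 1.03 (adjusted p = 0.0413) and 1.96 (adjusted p = 0.00534). Mmp2 and Ctsk reached the filter on mean signal only with the tumor arrays, so the filter favoured their rises. Among 4 tested receptors, 1 rose and 1 fell in each of these comparisons. The integrin chain Itga1 rose by 1.42 in MUC1-CD culture against Vector culture (adjusted p = 0.00270) and by 1.60 in tumors against MUC1-CD culture (adjusted p = 0.00552). The receptor kinase Ddr2, which binds fibrillar collagen, fell by 0.61 in MUC1-CD culture against Vector culture (adjusted p = 0.00273) and fell by 0.40 in tumors against MUC1-CD culture (adjusted p = 0.0360).

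Of 16 tested transcription factors with a reported role at fibrillar collagen genes, 4 rose and 5 fell in MUC1-CD culture against Vector culture (median -0.20). Scx, scleraxis, a regulator of Col1a1 in tendon, had 556 ± 42.1 in tumors, 661 ± 26.1 in MUC1-CD culture and 6562 ± 673 in Vector culture (SD, n = 2), and fell by 3.28 in MUC1-CD culture (SE 0.13, adjusted p = 2.56e-05). Creb3l1, which drives type I collagen in mouse bone, fell by 1.74 (SE 0.20, adjusted p = 0.000808). Sp1, which binds GC-rich promoters, fell by 0.76 (adjusted p = 0.00203), and Klf4 rose by 1.21 (adjusted p = 0.00115). In tumors against MUC1-CD culture only Sox6, a cartilage factor, was called among the 16, with a rise of 1.48 (adjusted p = 0.0128). Sox6 passed the filter through tumors alone and so had to be higher there. Of the other 15 genes none was called. The TGF-beta genes, whose ligands raise collagen synthesis in fibroblasts, split. In MUC1-CD culture against Vector culture 2 of 6 rose, Tgfb1 by 3.63 (SE 0.76, adjusted p = 0.00878) and the receptor Tgfbr1 by 1.11 (adjusted p = 0.00133), and 3 fell, among them Tgfb2, which fell by 1.18 (adjusted p = 0.00108). The Vector arrays of Tgfb1 had an SD of 83.5 on a mean of 64.4. Ccn2, a TGF-beta target, had 264 ± 55.9 in tumors, 773 ± 38.4 in MUC1-CD culture and 4471 ± 488 in Vector culture, a change of -2.50 in MUC1-CD culture against Vector culture (SE 0.18, adjusted p = 0.000131) and of -1.51 in tumors against MUC1-CD culture (SE 0.18, adjusted p = 0.00277). Tgfb2 rose by 1.09 in tumors against MUC1-CD culture (adjusted p = 0.00492), where 1 of the 6 rose and 1 fell.

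**Figure D4:**
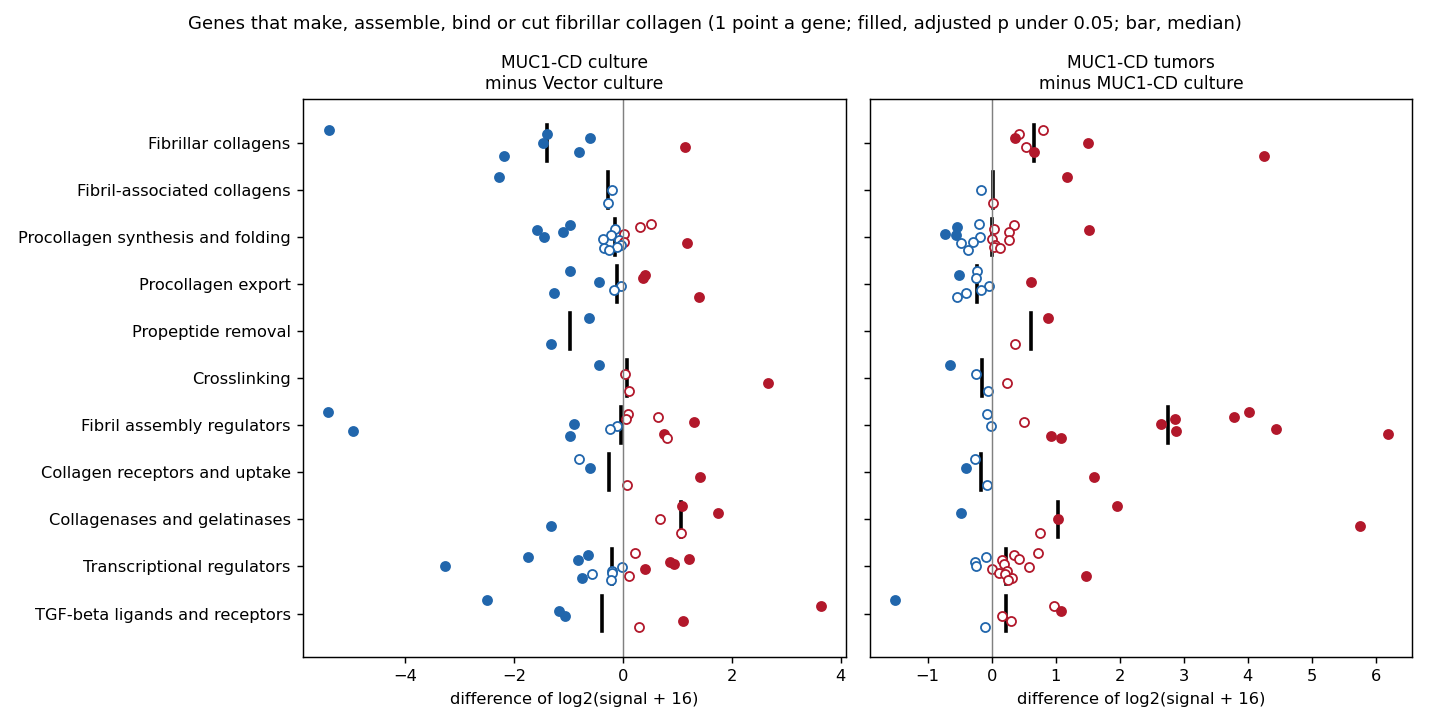
Change of each tested gene (1 point, as a difference of log2(signal + 16)) in the fibrillar collagens and 10 lists of genes that act on them, in MUC1-CD culture against Vector culture (left) and MUC1-CD tumors against MUC1-CD culture (right); filled points have an adjusted p under 0.05 and black bars are list medians. The collagen median is -1.39 on the left and 0.66 on the right. Without Col11a1, which passed the filter through Vector culture alone, the left median is -1.10. In the list of regulators of fibril assembly, Dcn, Lum and Dpt on the right passed the filter through tumors alone. So did Sox6 among the transcriptional regulators and Mmp9 among the collagenases and gelatinases. Col5a3, Fmod, Mmp2 and Ctsk reached the filter on mean signal only with their tumor arrays.

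The genes with the most similar pattern over the 6 arrays were found for each tested member among 10030 other genes, by the root mean square distance of centred log2 values. For Col1a1 they were Dpp7 (0.05) and Pcolce (0.05), and for Col1a2 Mok (0.03) and Afg2b (0.04). Pcolce had 6739.1 and 6718.4 in MUC1-CD tumors, 5414.5 and 5010 in MUC1-CD culture, and 15277.8 and 11274 in Vector culture. For Col3a1 they were Tmod4 (0.08) and Selenop (0.08), for Col5a2 Irf2 (0.06) and Sirt4 (0.06), and for Col5a1, by 1369955_at, Got1 (0.05) and Cxxc5 (0.06). Col5a3 lay nearest to Fos (0.33) and Tnn (0.41), and Col11a1 to Car3 (0.18) and Nrbp2 (0.24). Car3 had 639.6 and 527.1 in tumors, 350.7 and 340.3 in MUC1-CD culture, and 12605.8 and 17341.5 in Vector culture. Such neighbours share the arrays, their scaling and the quality of the Vector RNA, and with 6 arrays many genes fall into the same few patterns.

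Most calls in tumors against MUC1-CD culture needed both arrays of each MUC1-CD group. Without MUC1-CD culture replicate 1, 3 of the 7 collagen probe sets remained called, and without replicate 2, 2 did. Without tumor replicate 1 the number was 3, and without tumor replicate 2 it was 2. Over all probe sets, 3.65%, 3.67%, 3.07% and 3.47% were called in these fits in the same order, against 15.8% with all arrays. Col3a1 and Col5a3 were called in all 4 of these fits. Without Vector replicate 1 or 2, whose spread enters the shared error, 11 were called, beside 43.5% and 43.3% of all probe sets. No collagen probe set fell in any of them at the threshold.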

How the data were processed

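The deposited values are MAS5 signals per probe set, a linear intensity, per the submitters' processing notes. For the MAS5 version, detection calls and filters, the sources used here give nothing. All arrays had the same 2% trimmed mean, which was kept. Per the labels' protocols, RNA of cultures was extracted with TRIzol, and that of tumors with columns and TRIzol after freezing and homogenisation, so extraction and growth setting cannot be told apart. Of 31099 probe sets, 57 were controls. Of the others, 20826 named 1 gene and 20758 matched the GRCr8 annotation, while 436 with several genes stayed unnamed.

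Signals were taken as log2(signal + 16), and probe sets with a mean under the 40th percentile were dropped. Group was the only term in limma (3.58.1, R 4.3.3; lmFit, eBayes with trend). P values are 2-sided and rest on 3 residual degrees of freedom plus those that limma borrows across probe sets (median 3.70). The number of arrays limits the precision. Replicates differed by an SD of 0.28 (MUC1-CD tumors), 0.26 (MUC1-CD culture) and 0.62 (Vector culture) on the log2 scale, so p values against Vector culture can be too small and the others too large. The labels call replicates biological but name no separate cultures or animals, so p values measure the spread between these samples. The kept probe set of highest mean signal represents its gene. Named genes are the 8 members, up to 4 called genes with the smallest p per list and comparison, and the 2 nearest patterns of each member. The 11 partner lists, the 8 marker lists and the members were chosen with earlier results of these data known. The code was tested on simulated data. Alternatives were the pseudocount, filter, scaling, trend, block, arrays used, array weights, probe sets per gene and each array left out.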

Additional observations from a re-analysis of the deposited data

How the results depend on the processing

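In MUC1-CD culture against Vector culture, all 11 falling collagen probe sets that were tested stayed called and lower under each alternative (the filter at the 60th percentile left 10). The counts were 11 to 12 of 12 with 1 array left out. Over all probe sets the count was 8522, and 4391 to 11503 with 1 array left out. The rise of Col5a1 1369955_at lost its call after division by the median (adjusted p = 0.0509). In MUC1-CD tumors against MUC1-CD culture, 7 collagen probe sets were called, against 3 after division by the median, 11 with array weights and 2 to 11 with 1 array left out. All probe sets called there were 2952, against 8049 with only the 4 arrays compared, 7798 with array weights and 572 to 8097 with 1 array left out. In MUC1-CD tumors against Vector culture, 8 were called, 12 after division by the median (2 higher and 10 lower), and 7 to 11 with 1 array left out. Over all probe sets the count was 9589, and 5884 to 12434 with 1 array left out. Signs turned for Col1a2 1387854_at in tumors against MUC1-CD culture (-0.086, division by the median) and Col11a1 1384211_at (-0.077 to 0.52 with 1 array left out, the lowest without tumor replicate 1), neither called. Against Vector culture they turned for Col3a1 in tumors (-0.56 after division by the median, and -0.015 to 0.086 with 1 array left out, below 0 without tumor replicate 2 or Vector replicate 1) and Col5a2 1370895_at (0.024, quantile normalization). Over all probe sets the median change was -0.25 after division by the median and 0.07 as deposited in MUC1-CD culture against Vector culture, -0.21 and 0.05 in tumors against MUC1-CD culture, and -0.46 and 0.12 in tumors against Vector culture. The higher share of calls was 33.2% and 54.7%, 22.3% and 53.9%, and 25.1% and 56.5% in the same order. The replicate numbers did not pair the arrays: same-numbered deviations correlated at -0.02, -0.04 and -0.03, and with the replicate number as a block 12, 7 and 7 collagen probe sets and 8130, 2390 and 9208 of all were called. The cause of each of these moves was not tested.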

Other observations

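Markers of the other connective tissue lineages that make fibrillar collagen differed from list to list. Of 9 cartilage genes with a probe set, 2 were tested, Col9a2 and Hapln1, a link protein of cartilage matrix. Hapln1 had 66.3 ± 15.9 in MUC1-CD tumors, 223 ± 8.41 in MUC1-CD culture and 326 ± 73.5 in Vector culture (SD, n = 2), and fell by 1.55 in tumors against MUC1-CD culture (limma adjusted p = 0.00769). The cartilage sum was 501.8 and 301.8 in tumors, 443.4 and 469.9 in MUC1-CD culture, and 616.9 and 571.6 in Vector culture. Of the bone genes, Bglap, Ibsp, Alpl and Bmp3 were below the filter on all arrays, while Phex rose by 2.56 (SE 0.31, adjusted p = 0.000991) and Dmp1 by 0.78 (SE 0.21, adjusted p = 0.0229) in MUC1-CD culture against Vector culture. Spp1, osteopontin, a matrix protein of bone that other cells also make, held most of the bone signal, with 18137.5 and 18687.4 in tumors, 17919.2 and 18335.7 in MUC1-CD culture, and 18791 and 19753.9 in Vector culture. The bone sum was 18716 and 19308.4 in tumors, 18569.3 and 18921.1 in MUC1-CD culture, and 18980.7 and 20024.5 in Vector culture. The tendon sum, which is mostly Scx, was 948.2 and 936.5 in tumors, 752.8 and 717 in MUC1-CD culture, and 7182.7 and 6260.4 in Vector culture. Fmod, fibromodulin, another of the tendon genes, fell by 0.90 in MUC1-CD culture against Vector culture (adjusted p = 0.0220) and rose by 2.65 in tumors against MUC1-CD culture (SE 0.24, adjusted p = 0.000999). Its mean reached the filter only with the tumor arrays, so the filter favoured this rise.

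A single skeletal muscle probe set was high in Vector culture. Myh1, a myosin heavy chain of fast muscle, had 4121.9 and 3929.3 in MUC1-CD tumors, 2805.7 and 2625.8 in MUC1-CD culture, and 9778.9 and 10296.6 in Vector culture, and made up most of the muscle sum there. Acta1, skeletal muscle actin, had 5854.5 and 4971.2 in tumors, 3.7 and 5.1 in MUC1-CD culture, and 23.6 and 6.1 in Vector culture.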
